A study of Homo sapiens with 6 samples.

Results

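IL24 and 6 related genes were followed in HT1080 cells exposed to either of a pair of KDAC6 (HDAC6) inhibitors. They are the cytokine genes IL24, IL20 and IL19 and the receptor genes IL20RA, IL20RB, IL22RA1 and IL10RB, 7 of the 60675 gene rows in the deposited table, each found by its gene name. IL24 was chosen by its log2 fold change between the compounds in these same libraries, so its values and fold are given here as a description with no test. The other 6 were added as its family and receptor genes. HT1080 is an established human fibrosarcoma line, here with the genotype labelled WT, and all cells of a library come from that 1 line. Cells received 1 µM of SW-113 for 48 h in 3 libraries and the same dose of SW-138 for the same time in 3 others. The labels used here hold no vehicle. Each compound could therefore be compared only with the other, and "higher" or "lower" means with SW-138 against SW-113. A gene higher in SW-138 may have been raised by SW-138, lowered by SW-113, or both, and these cannot be told apart.

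IL24 is a secreted cytokine of the IL10 family, whose gene lies beside IL10, IL19 and IL20 on chromosome 1. IL19, IL20 and IL24 share receptors built from a long and a short chain. The chain pair IL20RA and IL20RB binds each of the 3 cytokines, and the pair IL22RA1 and IL20RB binds IL20 and IL24. IL10RB is the short chain of the receptors for IL10, IL22, IL26 and the type III interferons, where it pairs with IL10RA, IL22RA1, IL20RA and IFNLR1 in turn. Binding activates kinases of the JAK family and the transcription factor STAT3. The cytokines are best known from skin, where keratinocytes carry the receptors, and IL24 has also been studied for its growth-suppressing action in melanoma and other tumours.

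The region just before the IL24 start site is shown because IL24 was the member that differed, and that of IL20 because it is the next gene of the cluster and nearly silent in the same cells. A receptor gene with few reads, IL22RA1, is shown for contrast. Each run holds the 250 bases before the start site from the RefSeq promoter table for GRCh38.p14, 5′ to 3′ on the gene's strand. All 7 members matched that table. Capitals mark matches of the motifs searched on both strands, and a match describes letters only.
IL24 (chr1:206897193-206897442, plus strand): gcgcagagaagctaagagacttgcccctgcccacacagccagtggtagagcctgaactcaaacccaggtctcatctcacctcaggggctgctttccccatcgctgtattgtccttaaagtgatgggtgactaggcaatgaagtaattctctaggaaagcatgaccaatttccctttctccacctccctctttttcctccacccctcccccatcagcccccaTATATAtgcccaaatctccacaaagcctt
IL20 (chr1:206863315-206863564, plus strand): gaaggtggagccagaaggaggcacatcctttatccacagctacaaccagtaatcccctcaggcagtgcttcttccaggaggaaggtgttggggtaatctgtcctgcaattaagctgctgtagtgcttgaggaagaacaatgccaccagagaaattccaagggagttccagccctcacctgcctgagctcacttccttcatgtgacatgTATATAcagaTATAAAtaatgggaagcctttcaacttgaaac
IL22RA1 (chr1:24143141-24143390, minus strand): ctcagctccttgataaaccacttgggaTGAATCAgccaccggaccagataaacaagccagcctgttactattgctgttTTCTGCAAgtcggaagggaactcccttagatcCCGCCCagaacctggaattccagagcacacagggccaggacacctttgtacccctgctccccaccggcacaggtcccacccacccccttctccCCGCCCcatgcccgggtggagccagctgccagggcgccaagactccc

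The motifs were the AP-1 site TGANTCA, the CRE TGACGTCA, the C/EBP half-pair TTGCNNAA, the GC box GGGCGG, the STAT site TTCNNNGAA and the TATA forms TATAAA and TATATA. In the IL24 window the capitals are a TATATA that begins 29 bases before the start, a word held by 3.73% of 35116 promoters of the same length. The IL20 window holds TATAAA at 32 bases and TATATA at 42 bases before the start. The table lists a second IL20 start, whose window overlaps an IL20 exon and is not printed. It holds none of these words, with a GC content of 52.8% and 6 CpG dinucleotides. TATAAA stands in 10.7% of the promoters. In the IL22RA1 window the capitals are an AP-1 match at 223 bases, a C/EBP match on the other strand at 172 bases and GC boxes at 140 and 47 bases before the start. The AP-1 word stands in 6.57% of the promoters, the C/EBP word in 9.05% and the GC box in 42.6%. None of the AP-1, CRE (1.65% of promoters), C/EBP, GC box or STAT (6.57%) words is in the IL24 window. The IL24 window has a GC content of 51.6% with 2 CpG dinucleotides and the IL20 window 47.6% with 0, against medians of 58% and 11 over the promoters.

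The 6 libraries held between 32771665 and 50871576 expected counts, which are the read counts per gene that RSEM estimates. Levels are given as CPM, counts per 1e6 of the library total scaled by TMM, a method that balances library makeup. The SRP RNAs RN7SL1 and RN7SL2 together took 3.72% to 4.39% of the counts with SW-113 and 2.14% to 2.88% with SW-138, and the TMM factors were 0.9755 to 0.9813 and 1.0053 to 1.0324. SW-138 replicate 2, the shallowest library, stood apart on the first principal component. The 8 mesenchymal markers, VIM and FN1 among them, summed to 7172 to 8015 CPM with SW-113 and 7538 to 8274 CPM with SW-138, and 0 of the 8 were called by edgeR. Keratinocyte genes KRT5 and KRT14 had 0 counts throughout, and EPCAM, CDH1, TP63 and DSG3 had means under 1 CPM. KRT15 and CLDN4, at means of 4.43 and 2.43 CPM, carried the sum of the 8 epithelial markers, which ran from 6.09 to 6.39 CPM with SW-113 and from 7.31 to 7.90 CPM with SW-138, and its part in the results was not tested. Endothelial markers summed to under 1 CPM in each library. Of 7 immune markers 5 had means under 1 CPM. The exceptions were CD68, at a mean of 88.4 CPM, and HLA-DRA, at 1.297 CPM. The immune markers summed to 91.1 to 96.7 CPM with SW-113 and 75.8 to 94.4 CPM with SW-138, and edgeR called 0 of them. The labels do not say that replicates were separate cultures, and a p-value here measures no more than the spread among these libraries, which may be technical. In such bulk RNA, fewer cells that use a gene and less RNA per cell cannot be told apart.

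IL24 mRNA was present with both compounds and was 2.84-fold higher with SW-138. IL24 (ENSG00000162892) lies on the plus strand of chromosome 1 in GRCh38, from 206897443 to 206904139, and its longest transcript has 6 exons and 1819 bases. SW-113 replicates 1, 2 and 3 held 852, 1408 and 787 counts of it, which gave 22.1, 28.4 and 19.3 CPM. SW-138 replicates 1, 2 and 3 held 2809, 2251 and 2395 counts, or 67.3, 66.5 and 65.0 CPM. All SW-138 libraries lay above all SW-113 libraries. The lowest SW-138 library stood 2.29-fold above the highest SW-113 library, and the highest stood 3.48-fold above the lowest. Means were 23.3 ± 4.63 CPM for SW-113 and 66.3 ± 1.18 CPM for SW-138 (SD, n = 3 each), a log2 fold change of 1.51 ± 0.11 (SE).

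In these libraries the spread of IL24 was unequal between the compounds, a difference that was not tested. Its coefficient of variation was 19.9% among SW-113 libraries and 1.78% among SW-138 libraries, each over 3 libraries. SW-113 replicate 2, the deepest library, was the highest of its group, and the fold change was 1.68 (log2) without it and 1.39 without SW-113 replicate 3. Without SW-138 replicate 2, the library that stood apart, IL24 was at 1.499 and IL10RB at 0.15. Over the other choices of scaling, filter and test the log2 fold change ran from 1.501 to 1.57, the last with total counts alone. By log2 fold change IL24 ranked 30 of 16905 tested genes, and among the 9493 tested genes with a mean of at least 10 CPM it ranked 1. By mean CPM, which is not corrected for length, it ranked 4612, neither near the top nor near the bottom of the tested genes. These ranks restate the values by which IL24 was chosen.

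**Figure D1:**
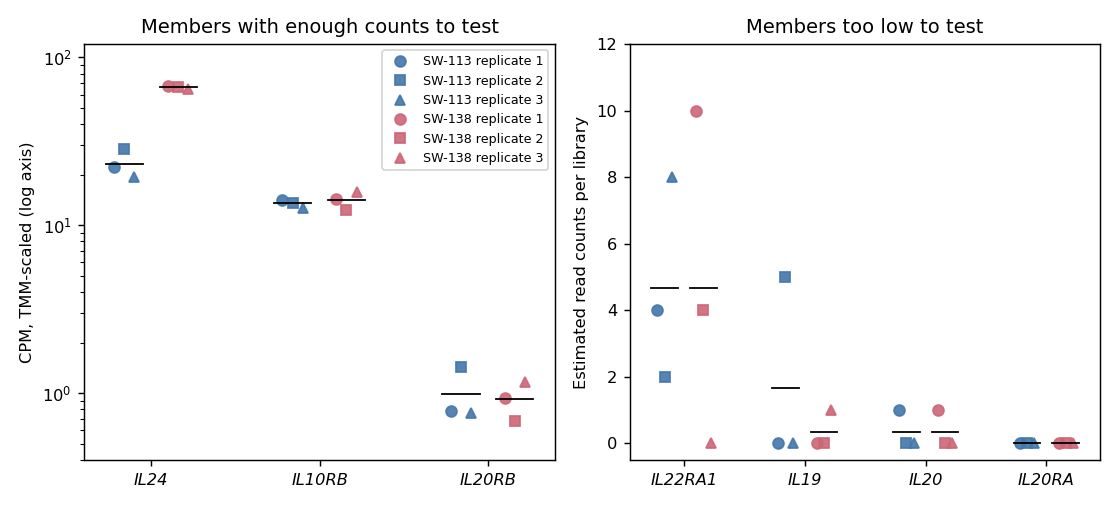
Left, CPM on a log axis for the 3 members with enough counts to test, and right, estimated read counts for the 4 that were too low, with 1 point per library and lines for group means. The SW-138 points of IL24 lie between 65.0 and 67.3 CPM and its SW-113 points between 19.3 and 28.4 CPM, the points of IL10RB and IL20RB overlap, and no low member exceeds 10 counts in a library.

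Against this, the comparison over all genes called 1153 of the 16905 tested (6.82%) with edgeR's quasi-likelihood test at an adjusted p of 0.05. Of these, 466 (2.76%) were higher and 687 (4.06%) were lower in SW-138. Groups of libraries did not overlap in 27.9% of tested genes, and in 12.4% they did not overlap with SW-138 higher. Counting IL24, 3 members could be tested and 4 were too low. Of the 6 members other than IL24, 2 could be tested and edgeR called 0 of them. At an unadjusted p under 0.05 there were also 0, and DESeq2 and limma-voom called 0 each. DESeq2 gave IL20RB no adjusted p, so its result covers IL10RB alone.

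The sister ligands IL19 and IL20, which use the same receptor chains as IL24, were close to absent. IL20 had 1 count in SW-113 replicate 1, 1 count in SW-138 replicate 1 and 0 in the other 4 libraries. IL19 had 5 counts in SW-113 replicate 2, 1 in SW-138 replicate 3 and 0 elsewhere. So the IL19 counts of the SW-113 group came from 1 library. Neither gene passed the filter on low counts. With genes kept at 1 count in 1 library, 31501 genes were tested and neither passed, with adjusted p-values of 0.712 for IL19 and 0.979 for IL20 (edgeR, Benjamini-Hochberg). No fold is given at such counts. IL24, by comparison, had 3047 counts summed over the SW-113 libraries and 7455 over the SW-138 libraries. Of the 7 other cytokines of the family, IL22, IL26 and the type III interferon genes IFNL1, IFNL2, IFNL3 and IFNL4 had 0 counts in all 6 libraries. IL10, the founding member of the family, reached at most 0.0271 CPM in a library.

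The long receptor chains IL20RA and IL22RA1, which pair with IL20RB to bind IL24, were too low for the main test. IL20RA had 0 counts in all 6 libraries. A count of 0 allows up to 3 counts, which corresponds to between 0.0590 and 0.0915 CPM depending on the library's depth. IL22RA1 had 4, 2 and 8 counts in SW-113 replicates 1, 2 and 3 and 10, 4 and 0 counts in SW-138 replicates 1, 2 and 3. The libraries overlapped, and the sum was 14 counts in each group, with an exact 95% Poisson interval of 7.65 to 23.5 counts. With genes kept at 1 count in 1 library its log2 fold change was 0.13, and the Benjamini-Hochberg adjusted p from edgeR was 0.969. Intervals and limits of this kind cover counting error only. Only a large difference in either long chain could therefore have been seen at this depth.

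The short chain IL20RB, shared by both receptors for IL24, was detected at about 1 CPM. IL20RB (ENSG00000174564) lies on chromosome 3 from 136946230 to 137011085. It was at 0.779, 1.43 and 0.761 CPM in SW-113 replicates 1, 2 and 3 and at 0.934, 0.680 and 1.17 CPM in SW-138 replicates 1, 2 and 3. The groups overlapped, with SW-113 replicate 2 highest, as for IL24 in that group. The log2 fold change was -0.11 ± 0.32 (SE), and its 95% limits were -0.82 and 0.60. The Benjamini-Hochberg adjusted p from edgeR was 0.882. The interval spans a difference of up to 0.82 in the downward direction, so equality is not shown. The sign turned without replicate 2 of SW-113 (0.27) or of SW-138 (0.06). An antisense gene, IL20RB-AS1, overlaps it, and the strand setting of the counting is not given in the sources used here, so reads of the pair cannot be told apart.

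IL10RB, which serves the receptors of other family members and not those of IL24, was the best measured receptor gene. IL10RB (ENSG00000243646) lies on chromosome 21 from 33266358 to 33310187. It was at 14.1, 13.6 and 12.7 CPM in SW-113 replicates 1, 2 and 3 and at 14.3, 12.3 and 15.7 CPM in SW-138 replicates 1, 2 and 3. The groups overlapped, and SW-138 held both the lowest and the highest library. The log2 fold change was 0.07 ± 0.09 (SE), and its 95% limits were -0.14 and 0.28. The Benjamini-Hochberg adjusted p from edgeR was 0.706. It was -0.0077 without SW-138 replicate 3. A difference as large as that of IL24 lies outside this interval. IL10RB shares sequence with the readthrough gene AP000295.1 and lies beside the antisense gene IL10RB-AS1, so its counts, which are not whole numbers, may be split among them.

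Ratios between genes were taken only per length, as counts per kilobase of the longest transcript scaled to 1e6 over protein-coding genes. On that scale IL24 was at 43.1 ± 9.02 for SW-113 and 128 ± 4.10 for SW-138 (SD, n = 3 each). IL10RB was at 21.2 ± 1.40 and 23.2 ± 2.35, and IL20RB was at 1.63 and 1.58. The order from IL24 to IL10RB to IL20RB was the same with both compounds. The ligand thus stood 2.03-fold above IL10RB with SW-113 and 5.51-fold above it with SW-138. The longest transcript has 1819 bases and 6 exons for IL24 but 2132 bases and 2 exons for IL10RB, so the size of this ratio depends on that choice. By library the ratio to IL10RB ran from 1.79 to 2.44 with SW-113 and from 4.85 to 6.33 with SW-138. Against IL20RB, the chain that both IL24 receptors need, the ratio was 26.4 with SW-113 and 80.7 with SW-138. By library that ratio ran from 22.3 to 32.0 and from 62.7 to 110, with no overlap. Both ratios carry the difference in IL24 by which the gene was chosen.

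**Figure D2:**
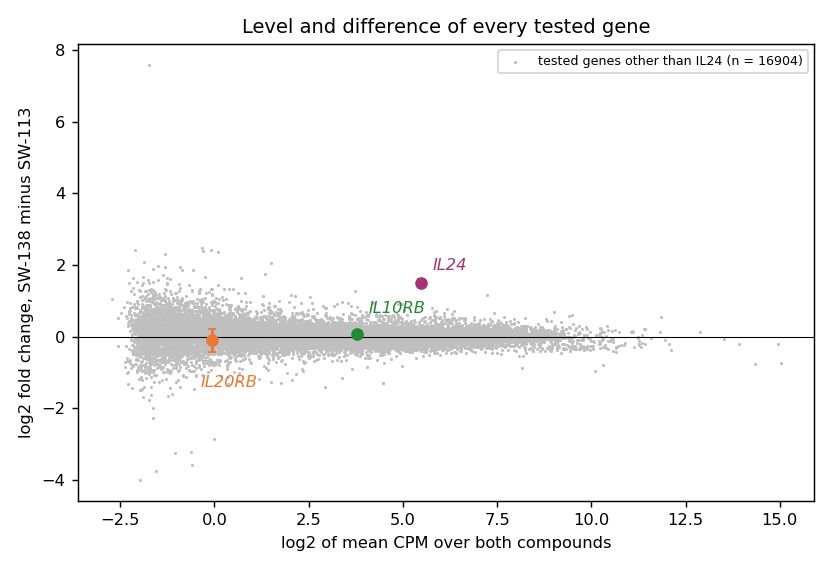
Log2 fold change, SW-138 minus SW-113, against log2 of the mean CPM, with 1 grey point for each tested gene and bars of ± SE for the 3 tested members. IL24 lies at 1.51, above the other genes of its level, while IL10RB at 0.07 and IL20RB at -0.11 lie within the bulk.

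Receptors of the same class, through which the interferons and IL10 act, held 1 higher and 1 lower gene. Of 8 listed, IL10RA and IL22RA2 had 0 counts throughout and 6 were tested, with 1 gene higher, 1 lower and 4 below the threshold (6.82% of all tested genes passed it). The median log2 fold change of the 6 was 0.02, and that of all tested genes was 0.01. F3, the tissue factor that starts blood clotting and has the fold of these receptors, was at 19.8, 16.7 and 20.2 CPM with SW-113 and 31.0, 22.5 and 25.9 CPM with SW-138. The groups did not overlap, and its log2 fold change was 0.49 ± 0.12 (SE; adjusted p = 0.0323, edgeR, Benjamini-Hochberg). The call of F3 was lost on leaving out SW-113 replicate 1 (0.52), 2 (0.40) or 3 (0.54), or replicate 1 (0.36) or 3 (0.51) of SW-138. IFNGR2, a chain of the interferon gamma receptor, was at 45.9, 45.5 and 46.3 CPM with SW-113 and 40.7, 36.9 and 38.4 CPM with SW-138. The groups did not overlap, and its log2 fold change was -0.25 ± 0.05 (SE; adjusted p = 0.0251, edgeR, Benjamini-Hochberg). IFNGR2 lost its call with total counts alone (-0.18) and on leaving out SW-113 replicate 1 (-0.25), 2 (-0.25) or 3 (-0.24), or replicate 3 of SW-138 (-0.24). IFNLR1, the long chain that pairs with IL10RB to bind type III interferons, was at -0.71 ± 0.32 and did not pass, except without SW-138 replicate 2, where it was at -1.14 (adjusted p = 0.0424, edgeR, Benjamini-Hochberg). The other 3 chains, IFNAR1, IFNAR2 and IFNGR1, had log2 fold changes of -0.01, 0.05 and 0.08.

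Kinases and STAT proteins that act below these receptors were expressed but not called. Of 11 listed genes 10 were tested, and edgeR, DESeq2 and limma-voom called 0 each, against 6.82% of all tested genes called by edgeR. An unadjusted edgeR p under 0.05 was found for 3, but the share of all tested genes at that cutoff was not counted. The median log2 fold change of the 10 was 0.05. STAT3, the main factor activated by IL24 receptors, was at 115.6, 122.7 and 112.6 CPM with SW-113 and 125, 120 and 118 CPM with SW-138. The groups overlapped, and its log2 fold change was 0.05 ± 0.05 (SE; 95% limits -0.07 and 0.16). JAK1, the kinase bound to the long chains, was at 0.05 ± 0.05 with the same limits. Log2 fold changes in the list ran from -0.19 for JAK2 to 0.33 for JAK3, a gene at less than 1 CPM in all libraries. STAT2, which carries interferon signals, was called with total counts alone, and JAK2 was called without SW-138 replicate 2.

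Among 10 brakes on this pathway, SOCS and PIAS genes and protein tyrosine phosphatases, 9 were tested. EdgeR, DESeq2 and limma-voom called 0 each, against 6.82% of all tested genes called by edgeR, and the median log2 fold change was 0.07. An unadjusted edgeR p under 0.05 was found for 2, but the share of all tested genes at that cutoff was not counted. SOCS3, a feedback inhibitor that STAT3 itself induces, was at 15.6, 14.4 and 13.5 CPM with SW-113 and 16.9, 15.2 and 16.9 CPM with SW-138. The groups overlapped in 1 library of each compound, and its log2 fold change was 0.17 ± 0.08 (SE; adjusted p = 0.231, edgeR, Benjamini-Hochberg). SOCS2, a related inhibitor best known from growth hormone signalling, was at 8.96, 8.12 and 9.19 CPM with SW-113 and 10.3, 11.7 and 10.7 CPM with SW-138. The groups did not overlap, but its log2 fold change of 0.32 ± 0.09 missed the threshold (adjusted p = 0.0591, edgeR, Benjamini-Hochberg). In 5 alternatives SOCS2 passed, with adjusted p-values over the alternatives that kept all libraries from 0.0302 to 0.067.

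Known targets of STAT3 differed in few cases. Of 15 listed and tested, 2 were higher, 0 lower and 13 short of the threshold, against 6.82% of all tested genes called, and their median log2 fold change was 0.07. CCND1, which encodes cyclin D1, was higher by 0.40 ± 0.05 (SE; adjusted p = 0.00372, edgeR, Benjamini-Hochberg). BCL6, a transcriptional repressor, was at 26.3, 25.5 and 27.8 CPM with SW-113 and 31.6, 31.3 and 31.2 CPM with SW-138. It was higher by 0.24 ± 0.06 (adjusted p = 0.0324, edgeR, Benjamini-Hochberg). The call of BCL6 was lost on leaving out SW-113 replicate 1 (0.23), 2 (0.21) or 3 (0.27), or replicate 1 (0.24) or 3 (0.25) of SW-138. Without SW-138 replicate 2, and with genes kept at 1 count in 1 library, the list held 4 calls, JUNB and VEGFA added, all higher. MYC and MCL1, a growth factor-responsive transcription factor and an anti-apoptotic protein, were at 0.01 ± 0.05 and 0.07 ± 0.05 and did not pass. CCND1 has many other inputs, and both calls are mRNA levels that say nothing of STAT3 activity.

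Of genes reported to respond to, or to bind, the IL24 protein in tumour cells, GADD45B, DDIT3 and BAX were called. Of 14 listed 13 were tested, with 2 higher, 1 lower, 10 short of the threshold and a median of 0.07. Over all tested genes 2.76% were higher and 4.06% lower. The higher genes were GADD45B, a stress-inducible growth arrest gene, and DDIT3, which encodes the endoplasmic reticulum stress factor CHOP. GADD45B was at 12.4, 11.4 and 13.02 CPM with SW-113 and 15.9, 17.0 and 19.7 CPM with SW-138, a log2 fold change of 0.52 ± 0.10 (SE; adjusted p = 0.0109, edgeR, Benjamini-Hochberg). DDIT3 was at 30.9, 37.8 and 29.6 CPM with SW-113 and 40.6, 40.7 and 44.3 CPM with SW-138, a log2 fold change of 0.35 ± 0.09 (adjusted p = 0.041, edgeR, Benjamini-Hochberg). In both genes all SW-138 libraries lay above all SW-113 libraries. GADD45B lost its call on leaving out SW-113 replicate 2 (0.46), and DDIT3 on leaving out replicate 1 (0.31) or 3 (0.28) of SW-113, or replicate 1 (0.37) or 3 (0.31) of SW-138. BAX, which drives mitochondrial cell death, went the other way at -0.45 ± 0.06 (adjusted p = 0.00326, edgeR, Benjamini-Hochberg). EIF2AK2, the kinase PKR, was at 0.02 ± 0.05, and HSPA5, the endoplasmic reticulum chaperone BiP, was at -0.02 ± 0.08. Neither gene passed.

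**Figure D3:**
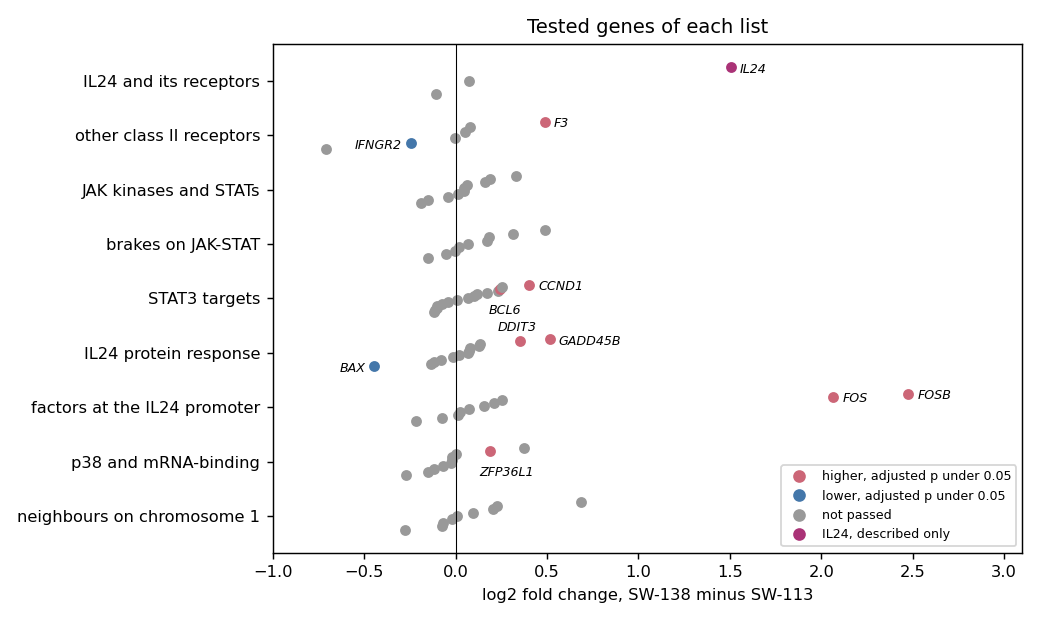
Log2 fold changes, SW-138 minus SW-113, of the tested genes in each gene list around IL24, with 1 point per gene, red for calls higher, blue for calls lower and grey for genes that did not pass. Medians of the lists lie between -0.02 and 0.12, and FOS and FOSB, at 2.07 and 2.48, are the listed genes above IL24 at 1.51.

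Factors reported to act at the IL24 promoter are those of the AP-1 and C/EBP families and SP1. All 10 listed were tested, with 2 higher, 0 lower, 8 short of the threshold and a median of 0.12, against 2.76% higher and 4.06% lower over all tested genes. FOS was at 1.53, 0.907 and 0.860 CPM with SW-113 and 5.15, 3.67 and 4.86 CPM with SW-138, with no overlap. Its log2 fold change was 2.07 ± 0.25 (SE; adjusted p = 0.00185, edgeR, Benjamini-Hochberg). FOSB, at under 2 CPM in all libraries, was higher by 2.48 ± 0.30 (adjusted p = 0.00215, edgeR, Benjamini-Hochberg). The abundant AP-1 members FOSL1 and FOSL2 were at 0.01 ± 0.06 and 0.02 ± 0.08. JUN, JUNB and JUND were at 0.21 ± 0.08, 0.25 ± 0.08 and -0.22 ± 0.07 and did not pass, although their groups did not overlap. CEBPB and SP1 were at -0.07 ± 0.05 and 0.07 ± 0.05. Without SW-138 replicate 2, and with genes kept at 1 count in 1 library, the list held 5 calls, with JUN and JUNB higher and JUND lower. DESeq2 called FOS and JUNB and gave FOSB no adjusted p. Under a minimum mean of 5 CPM the list held 0 calls, since FOS and FOSB fell out. As shown above, the 250 bases before the IL24 start hold no AP-1, C/EBP or GC box word, which says nothing of sites elsewhere.

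The stability of cytokine mRNAs is set in part by p38 MAP kinase and proteins that bind AU-rich elements. Of 10 such genes, all tested, 1 was higher, 0 lower and 9 short of the threshold, and the median was -0.02. That is near the 6.82% called over all tested genes. ZFP36L1, which encodes a protein that promotes decay of AU-rich mRNAs, was at 201, 203 and 199 CPM with SW-113 and 231, 228 and 228 CPM with SW-138. It was higher by 0.19 ± 0.04 (SE; adjusted p = 0.037, edgeR, Benjamini-Hochberg). The call of ZFP36L1 was lost on leaving out SW-113 replicate 1 (0.18), 2 (0.19) or 3 (0.18), or replicate 1 (0.18) or 3 (0.19) of SW-138. Its relative ZFP36, or tristetraprolin, was at 0.37 ± 0.10 and just missed the threshold (adjusted p = 0.0526, edgeR, Benjamini-Hochberg). ZFP36 passed in 9 of the 11 alternatives that kept all libraries, DESeq2 among them, and not with limma-voom or upper quartile factors. Without SW-138 replicate 2 the list held 3 calls, MAPK11 lower among them. MAPK14, the main p38 kinase, was at -0.02 ± 0.05, and ELAVL1, which stabilises AU-rich mRNAs, was at -0.07 ± 0.04.

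The neighbours of IL24 on chromosome 1 were not called. The cluster from the end of IL10, which lies on the minus strand, to the end of IL24 covers 136.538 kb. Between the end of IL20 and the start of IL24 lie 28219 bases. Of 17 listed neighbours 9 were tested, and edgeR, DESeq2 and limma-voom called 0 each, against 6.82% of all tested genes called by edgeR. An unadjusted edgeR p under 0.05 was found for 3, but the share of all tested genes at that cutoff was not counted. The median log2 fold change of the 9 was 0.01. The nearest expressed gene, FCMR, which encodes an Fc receptor for IgM, runs toward IL24 and ends 246 bases from its end. FCMR was at 1.40, 1.67 and 1.20 CPM with SW-113 and 2.08, 2.42 and 2.42 CPM with SW-138. The groups did not overlap, and the log2 fold change was 0.69 ± 0.19 (SE; adjusted p = 0.0608, edgeR, Benjamini-Hochberg). Across the alternatives that kept all libraries the adjusted p of FCMR ran from 0.0317 to 0.0615, and 4 of 10 passed. FCMR converges on IL24 from the other strand, and without the strand setting reads near the shared ends cannot be assigned to 1 of the genes with certainty. With genes kept at 1 count in 1 library 3 neighbours were called, FCMR and DYRK3 higher and IKBKE lower, and without SW-113 replicate 2 DYRK3 alone.

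Farther from IL24 the differences were small. MAPKAPK2, a kinase below p38, starts upstream, at -212.499 kb, and was at -0.02 ± 0.05 (SE). DYRK3, a kinase, was at 0.21 ± 0.08, EIF2D at -0.07 ± 0.06, PFKFB2 at 0.23 ± 0.17 and YOD1 at 0.10 ± 0.07. RASSF5 and SRGAP2 were at -0.07 ± 0.09 and 0.01 ± 0.05. IKBKE, a kinase of the innate immune response, was at -0.27 ± 0.07 and its Benjamini-Hochberg adjusted p from edgeR was 0.0515. Of the 11 alternatives that kept all libraries IKBKE passed in 6, with adjusted p-values over the 11 from 0.0171 to 0.1. Within 500 kb on either side GENCODE release 29 lists 36 genes, of which 12 were tested. Among these, CD55, a complement regulator outside the list and chosen after its values were seen, was higher by 0.28 ± 0.05 (adjusted p = 0.0127, edgeR, Benjamini-Hochberg). It starts 423.933 kb downstream of the IL24 start. The call of CD55 was lost on leaving out SW-113 replicate 1 (0.28), 2 (0.27) or 3 (0.29).

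**Figure D4:**
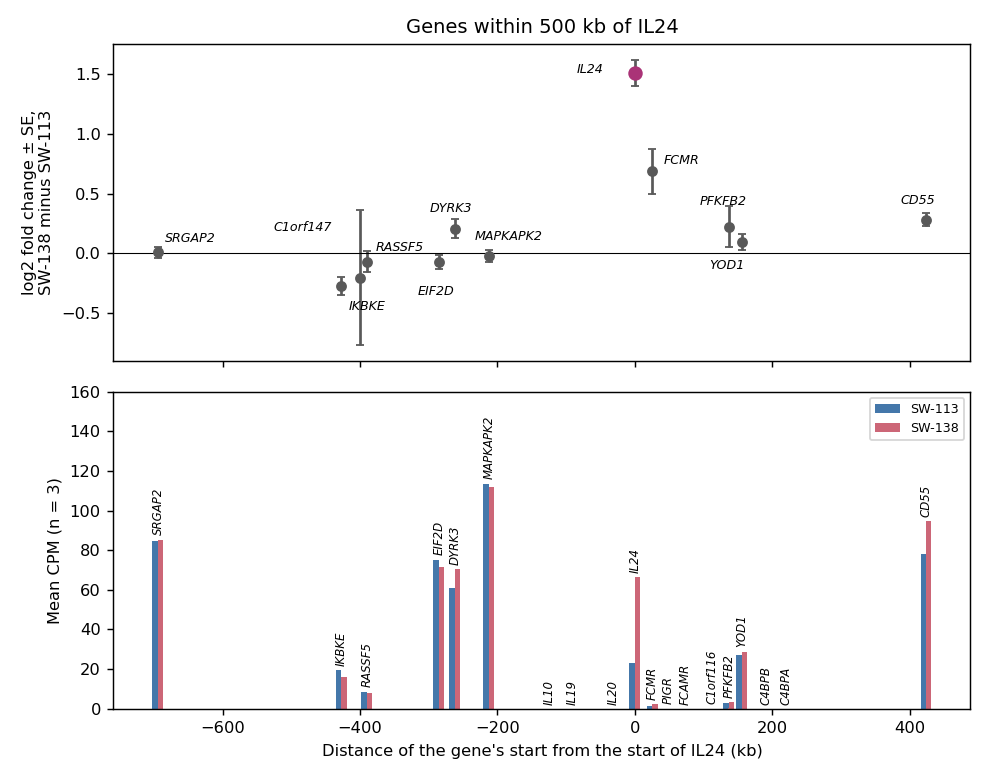
Log2 fold change ± SE (top) and mean CPM of each compound (bottom) of genes within 500 kb of IL24, against the distance of the gene's start from the IL24 start in kb. IL24 stands at 1.51 and FCMR at 0.69, while IL10, IL19 and IL20 have almost no counts and the other tested genes lie between -0.27 and 0.28.

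Among interleukin ligand genes with the symbol IL and a number, IL24 was the second most abundant with both compounds. A letter other than R could follow the number, and ligands with other symbols were not counted. The table held 39 genes so named. Of these, 11 were tested, 12 had counts but were too low and 16 had 0 counts in all libraries. Per length, IL1B, the pyrogenic cytokine, led at 457 with SW-113 and 456 with SW-138. IL24 followed at 43.1 and 128, and IL11, a gp130 cytokine, at 29.03 and 44.3. The level of IL1B was 10.6 times that of IL24 with SW-113 and 3.56 times with SW-138. IL24 made up 7.32% of the summed per-length level of the 39 genes for SW-113 and 18.5% for SW-138. The neighbours in this order, IL24 and IL11, did not overlap with either compound, since the highest IL11 library was at 30.4 with SW-113 and 47.7 with SW-138, and the lowest IL24 library was at 35.2 and 123.

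Of the 10 other tested ligands 2 were higher, 0 lower and 8 short of the threshold, against 2.76% higher and 4.06% lower over all tested genes, and their median log2 fold change was -0.06. IL11 was at 20.0, 20.5 and 18.6 CPM with SW-113 and 28.3, 26.6 and 31.5 CPM with SW-138, a log2 fold change of 0.55 ± 0.08 (SE; adjusted p = 0.00384, edgeR, Benjamini-Hochberg). IL6, which like IL11 signals through gp130 to STAT3, was at 2.44, 2.56 and 2.70 CPM with SW-113 and 4.48, 4.26 and 3.69 CPM with SW-138. The log2 fold change of IL6 was 0.69 ± 0.14 (adjusted p = 0.0146, edgeR, Benjamini-Hochberg). The call of IL6 was lost on leaving out SW-113 replicate 1 (0.66), 2 (0.69) or 3 (0.73), or replicate 1 of SW-138 (0.63). In IL6 and IL11 the groups did not overlap. IL1B was at -0.06 ± 0.04 and did not pass, and its SW-113 libraries, at 216 to 226 CPM, lay above its SW-138 libraries, at 207 to 214 CPM. The remaining tested ligands were IL1A, IL32, IL17D, IL12A, IL7, IL15 and IL33, of which IL1A came nearest to the threshold at 0.35 ± 0.10 (adjusted p = 0.052, edgeR, Benjamini-Hochberg). IL1A passed in 7 of the 11 alternatives that kept all libraries, DESeq2 among them and limma-voom not, and on leaving out SW-113 replicate 2 (0.44).

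**Figure D5:**
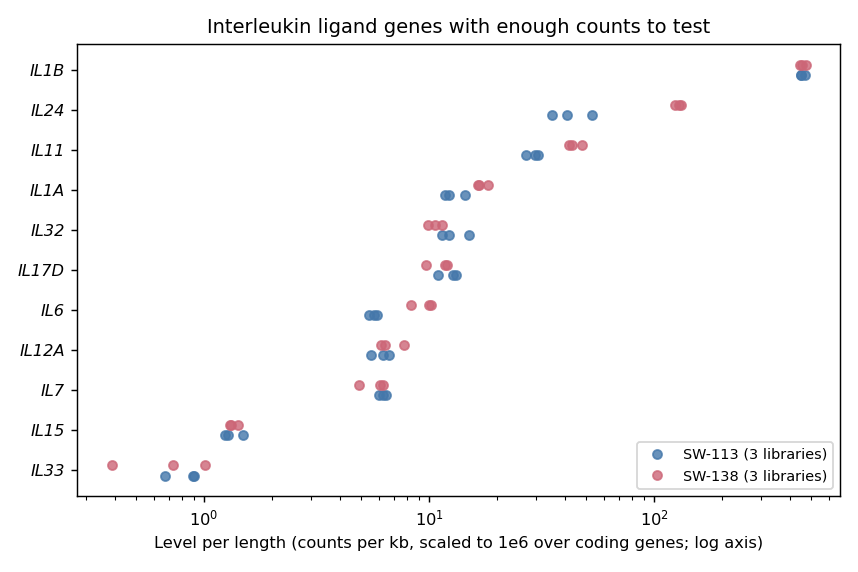
Level per length, on a log axis, of the 11 tested interleukin ligand genes, with 1 point per library coloured by compound. IL1B stands highest at 457 and 456, IL24 is second at 43.1 with SW-113 and 128 with SW-138, and IL11 follows at 29.03 and 44.3.

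The genes whose pattern over the 6 libraries was most like that of IL24 were found by the Pearson correlation of log2 CPM among 11939 tested genes with a symbol and a mean of at least 1 CPM. The points share the 3 against 3 split of the compounds, so a gene that differs between the groups scores high, and the value is a description. The first was TXNIP, a thioredoxin-binding protein, with r of 0.998. It was followed by PRPF39, a splicing factor, at 0.995, SCG5, a secretory granule chaperone, at 0.994, GAD1, which makes GABA, at 0.992 and ZFP36L1 at 0.991. TXNIP was at 387, 427 and 364 CPM with SW-113, with replicate 2 highest and replicate 3 lowest as in IL24. With SW-138 it was at 658, 627 and 631 CPM, with replicate 1 highest as in IL24, but replicate 2 lowest where IL24 had replicate 3 lowest. TXNIP was picked for its likeness over these same libraries, so the shared order is no support.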

How the data were processed

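RNA of HT1080 cells was measured in 6 libraries, 3 per compound, from total RNA after ribosomal RNA depletion, per the labels' protocols. Expected counts per gene and library were deposited by the authors in 1 table. They are estimates, and the share that was not whole ran from 10.6% to 11.6% by library. Bowtie2 2.5.4, RSEM 1.3.3, Trimmomatic 0.39, DESeq2 1.42.0 and GRCh38 are named in the submitters' processing notes, with no role or order. The annotation, filters and strand setting are not given in the sources used here.

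Expected counts were rounded, filtered by compound (filterByExpr) and scaled by TMM. SW-138 was compared with SW-113 with edgeR 4.0.16 (quasi-likelihood test, no block) over 16905 genes, with Benjamini-Hochberg adjustment at 0.05. Standard errors and interval widths came from limma-voom (limma 3.58.1, R 4.3.3). Coordinates came from GENCODE release 29, which held 57055 of the rows. Levels per length used its longest transcript. Figures were drawn with matplotlib 3.10.9. The fit was checked on simulated data.

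The 10 gene lists, that of the members among them, were chosen with earlier results of these data known. Members, list genes past the threshold (where 5 or fewer pass), tested neighbours and ligands, and the 5 genes most like IL24 were named by rule, and other named genes illustrate a role. Alternatives were DESeq2 size factors, upper quartile factors, total counts, 2 other filters, DESeq2 1.42.0, limma-voom, robust edgeR, a replicate block, leaving out stable noncoding and mitochondrial RNA, leaving out each library and, chosen after seeing the data, protein-coding genes alone.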

Additional observations from a re-analysis of the deposited data

How the results depend on the processing

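The log2 fold change of IL24 kept its direction in all 17 alternatives, at 1.501 to 1.57 where all libraries were kept and 1.39 to 1.68 where 1 was left out. The reversed values were those of IL20RB without replicate 2 of either compound (0.27 for SW-113, 0.06 for SW-138) and of IL10RB without SW-138 replicate 3 (-0.0077), and neither gene passed in any fit. Without single libraries IL20RB ran from -0.30 to 0.27 and IL10RB from -0.0077 to 0.15. IL20RB was not tested under a minimum mean of 5 CPM, and DESeq2 gave it no adjusted p. The 1153 calls over all genes became 2060 (991 higher, 1069 lower) with genes kept at 1 count in 1 library and 303 to 1616 without single libraries, lowest without SW-113 replicate 3 and highest without SW-138 replicate 2. Total counts alone gave 1300 calls with another split, 923 higher and 377 lower. Replicate numbers share no stated culture, so they are not taken as pairs. Deviations of same-numbered libraries correlated at 0.049, 0.206 and 0.051, and those of differently numbered libraries at -0.142 to 0.09. These correlations do not settle whether the numbers mark pairs. With the replicate block 2363 genes were called (1093 higher, 1270 lower) and IL24 was at 1.52. The block called 3 neighbours of IL24, FCMR and DYRK3 higher and IKBKE lower, and brought SOCS2, ZFP36, MAPK11 and IL1A past the threshold. It also added JUNB and VEGFA to the called STAT3 targets, and JUN, JUNB and JUND to the called promoter factors. The causes of these shifts were not tested. Low counts limit IL19, IL20, IL20RA and IL22RA1, in which only a large difference could have been seen.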
